A study of Homo sapiens with 24 samples.

Results

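In the human embryonic kidney line HEK293T, 3 reproduced regions of N1-methyladenosine (m1A) pulldown had their summit within the first 60 nt of a messenger RNA, and they lay on SMARCC2, BSN and CLUH. The regions were chosen by their own peak calls: peaks of all 10 lists that shared at least 1 nt of a RefSeq transcript were merged. Regions on transcripts with an NM_ accession (mRNAs) were kept when both replicate lists of at least 1 condition held them and the median summit of their peaks was 60 nt or less. Of 38299 merged regions, 4669 were such reproduced mRNA regions, and 3 of these met the limit on the summit. Position and recurrence are therefore given as a description, with no test.

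The series held input, anti-m1A pulldown and, in part, pulldown plus demethylase libraries of polyadenylated RNA, with 2 replicates in each of 12 groups. WT were wild-type HEK293T cells without treatment, and KO were HEK293T cells in which ALKBH3, a demethylase of alkylated nucleic acids, was knocked out. UT were untreated wild-type cells, H2O2 were wild-type cells exposed to 50 µM hydrogen peroxide for 30 min, and Starve were wild-type cells kept for 16 h in medium lacking serum. All cells were otherwise grown in medium with 10% serum. The labels do not say whether the KO cells were 1 clone or whether replicates were separate cultures. The descriptions of the UT samples point to the Starve lists, whereas the lists themselves carry separate UT and Starve names. The list names were followed, and each UT and Starve value below rests on them.

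N1-methyladenosine carries a methyl group, and a positive charge, on the edge of the base that pairs with uridine. It is long known from tRNA and rRNA, and in mRNA antibody mapping placed it mostly in the leader and around the first splice site. Eukaryotic mRNAs begin with a 7-methylguanosine cap, and the bases that follow it can be methylated too. Among reproduced mRNA regions, those described here had the median summit closest to that cap, counted from nt 1 of the RefSeq transcript. Transcription may begin at other positions in these cells, so the distance to the true cap was not measured.

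The RefSeq promoter table (GRCh38.p14) held starts for 2 of the 3 members, BSN and CLUH. Their first 30 transcribed bases are shown because they run from the annotated start into the 5′ part of the peaks, ahead of the summits, with each adenosine, the base that can carry the mark, in capitals. CLUH has 2 starts in the table, and which of them is nt 1 of NM_015229 in the build behind the peak lists, hg19, was not determined.
BSN, chr3:49554477-49554506, + strand: AggcggcggcgcgAgccgAgctgggAgAtg
CLUH, chr17:2711991-2712020, − strand: AcAgtgcccgcccgAcgggcAgcgAgcAgc
CLUH, chr17:2711735-2711764, − strand: ggtgActccgtccttccctcAgcAgccgcg

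The BSN start and the upstream CLUH start begin with an adenosine, as do 44.4% of the 35116 starts in the table, and the downstream CLUH start begins with a guanosine. All 3 starts were rich in G and C. Over the first 50 transcribed bases the GC content was 84% in BSN, 76% and 70% in CLUH, against a median of 60% over all starts. BSN had 6 adenosines in those 50 bases and the CLUH starts had 9 and 5, against a median of 10. The letters GTTCNA, part of the tRNA context in which the TRMT6/TRMT61A enzyme places m1A, were searched alone and on both strands. They were in none of these 3 stretches of 50 bases and in 4.48% of all starts. If the annotated start is nt 1, these 50 bases end before the BSN and CLUH summits and cover the 5′ part of the peaks.

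SMARCC2 (NM_003075) encodes BAF170, a scaffold subunit of the SWI/SNF chromatin remodelling complexes. Its region spanned nt 5 to 223, with a median summit at nt 52. Starve replicate 1 had a peak at nt 5 to 114 with its summit at nt 52, a pileup of 51 and 5.25-fold enrichment. Pileup is the deposited fragment coverage at the summit, and fold is the authors' own ratio of pileup over background. That background is a local one or, where larger, a list-wide one. Starve replicate 2 had a peak at nt 9 to 111 with its summit at nt 51, a pileup of 63 and 6.43-fold enrichment. The summits of the 2 Starve lists thus lay 1 nt apart. Among the 1591 reproduced mRNA regions with 1 peak in each Starve list, the median distance between replicate summits was 26 nt. Of these regions, 6.98% were at 1 nt or less. The members were chosen by summit position, whereas the regions set against them lay anywhere on a transcript. No closeness of replicates is therefore read from such distances, here or for BSN and CLUH below.

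H2O2 replicate 1 gave the highest values of any member: a SMARCC2 peak at nt 49 to 223 with a pileup of 216 and 19.98-fold enrichment. Its summit was at nt 138, beyond the limit of 60 nt, so it overlapped the Starve peaks without sharing their summit. Within its list the pileup was above that of 94.6% of mRNA peaks, whereas in Starve replicates 1 and 2 the SMARCC2 pileups were above 49.0% and 15.2%. No SMARCC2 peak near the start was called in H2O2 replicate 2, or in any UT, WT or KO list. The H2O2 peak therefore had no replicate.

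SMARCC2 was counted as reproduced on 1 of its transcripts. NM_001130420 and NM_139067 carried the same pair of near-start peaks in Starve replicate 2 (nt 9 to 111, summit at nt 52, pileup of 59) and H2O2 replicate 1 (nt 49 to 223, summit at nt 138, pileup of 213), but none in Starve replicate 1. Isoforms share sequence, so these peaks can repeat the same reads. NM_003075 had 6 further peaks downstream of its start. They were at nt 1425 to 1536 in UT replicate 1 (pileup of 108, 9.27-fold) and nt 1436 to 1535 in H2O2 replicate 1 (pileup of 47, 2.61-fold), which overlap each other. A WT replicate 2 peak lay at nt 2423 to 2530 (pileup of 90, 4.91-fold) and an H2O2 replicate 1 peak at nt 3152 to 3251 (pileup of 48, 2.18-fold). Starve replicate 2 (nt 3581 to 3680, pileup of 71, 2.06-fold) and H2O2 replicate 2 (nt 3587 to 3686, pileup of 156, 2.76-fold) had overlapping peaks. So 6 of the 10 lists held a peak somewhere on the transcript, and Starve alone held the one at the start in both replicates.

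BSN (NM_003458) encodes Bassoon, a scaffold protein of the presynaptic active zone best known from neurons. Its region spanned nt 4 to 150, with a median summit at nt 58.5. Starve replicate 1 had a peak at nt 27 to 150 with its summit at nt 61, a pileup of 51 and 5.25-fold enrichment. Starve replicate 2 had a peak at nt 4 to 103 with its summit at nt 56, a pileup of 38 and 3.92-fold enrichment. The summits lay 5 nt apart, 1 on each side of the limit, and 19.0% of the reproduced Starve regions had summits at least as close. The only other BSN peak in any list was at nt 1901 to 2000 in Starve replicate 1 (pileup of 29, 3.03-fold). BSN thus had peaks in the Starve lists alone and none in the 8 other lists.

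CLUH (NM_015229) encodes an RNA-binding protein that binds mRNAs of nuclear-encoded mitochondrial proteins. Its region spanned nt 11 to 125, and its median summit of nt 60 was at the limit itself. UT replicate 1 had a peak at nt 11 to 110 with its summit at nt 51, a pileup of 24 and 2.22-fold enrichment. UT replicate 2 had a peak at nt 26 to 125 with its summit at nt 60, a pileup of 31 and 3.81-fold enrichment. H2O2 replicate 1 also had a peak, at nt 24 to 123, with its summit at nt 74, a pileup of 28 and 2.67-fold enrichment. No Starve, WT or KO list, and not H2O2 replicate 2, held a CLUH peak near the start. The UT summits lay 9 nt apart, against a median of 20 nt in the 1408 reproduced UT regions with 1 peak in each list.

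The CLUH peaks had the lowest −log10 q-values of the member peaks. Their −log10 q-values were 2.67 and 8.98 in UT and 4.76 in H2O2 replicate 1, above those of 3.79%, 34.4% and 5.86% of the mRNA peaks in the same lists. The Starve peaks of SMARCC2 had −log10 q-values of 20.4 and 30.3 and those of BSN 20.4 and 11.5. These were above 59.7% and 31.3% (SMARCC2) and 59.7% and 10.7% (BSN) of the mRNA peaks in Starve replicates 1 and 2. By rank within its list, the CLUH peak of UT replicate 2 was thus above both Starve replicate 2 peaks. Elsewhere on NM_015229 were 7 peaks, each called in a single list except for an overlapping pair. The strongest were at nt 3700 to 3809 (pileup of 317, 22.9-fold) and nt 5036 to 5136 (pileup of 269, 25.5-fold) in H2O2 replicate 2, and nt 432 to 553 in H2O2 replicate 1 (pileup of 195, 18.05-fold). The second of these overlapped a UT replicate 2 peak at nt 4872 to 5121 (pileup of 60, 4.25-fold). A KO replicate 2 peak lay at nt 1422 to 1598 (pileup of 57, 2.84-fold), a UT replicate 2 peak at nt 786 to 1023 (pileup of 60, 6.82-fold) and a Starve replicate 2 peak at nt 4287 to 4386 (pileup of 81, 2.06-fold). The start of CLUH therefore gave pileups of 24 to 31, below every other CLUH peak in the 10 lists.

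**Figure D1:**
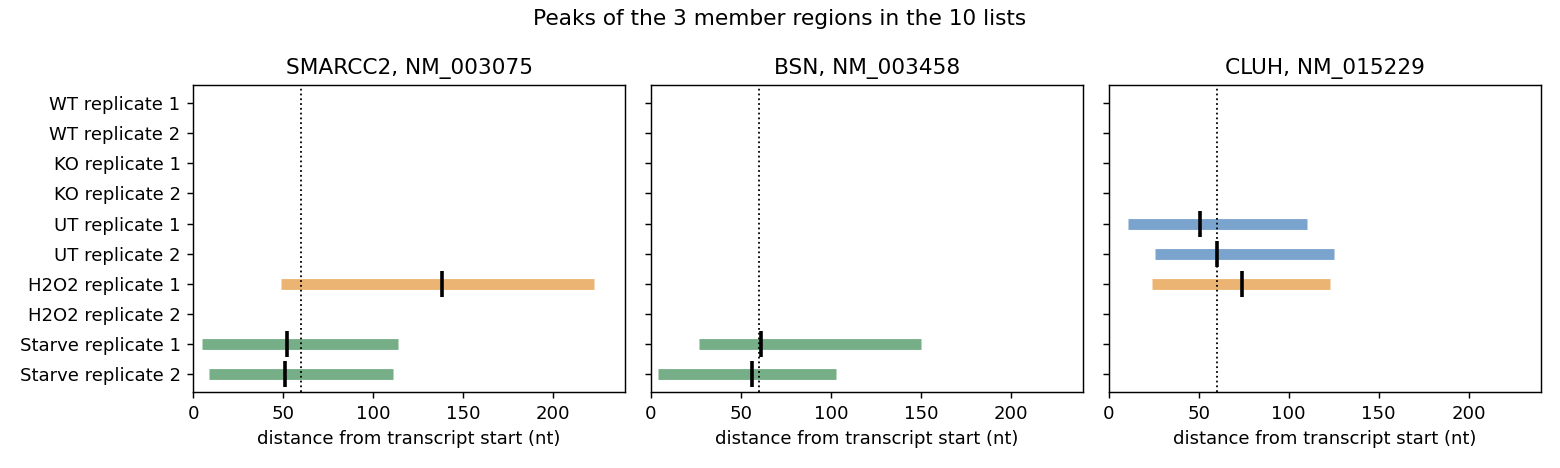
Each panel shows 1 member, with the 10 lists as rows and distance from the transcript start in nt on the horizontal axis. Bars are called peaks (blue UT, orange H2O2, green Starve), black ticks are summits, and the dotted line is the limit of 60 nt. SMARCC2 and BSN have peaks in both Starve lists, CLUH in both UT lists, and the 4 WT and KO rows are empty.

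Between conditions, SMARCC2 and BSN were in both Starve lists and neither UT list, and CLUH was in both UT lists and neither Starve list. Of all 4669 reproduced mRNA regions, 15% had the first pattern and 12.1% the second. Since the rule required both lists of some condition, nothing is read from these counts. In the other comparisons 0 of the 3 members were called. The shares of reproduced regions were 5.72% in both H2O2 lists and neither UT list, 13.5% in both UT lists and neither H2O2 list, 23.2% in both lists of KO and none of WT, and 6.02% in both lists of WT and none of KO. With 2 lists against 2 the smallest exact permutation p of a single region is 0.333, so none can be called different. The Starve and H2O2 comparisons share the UT lists. Peak lists give no value where no peak was called, so absence from a list does not show absence of m1A, and fewer modified molecules cannot be told apart from less RNA of the gene.

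The 3 members had in common that none had a near-start peak in a WT or KO list, that each was in both lists of a single condition, and that each was in 3 lists or fewer. Of all reproduced mRNA regions, 28.2% had no WT or KO peak, 70.0% were in both lists of a single condition and 45.6% were in 3 lists or fewer. Of the 322 reproduced regions with a median summit from nt 61 to 100, these shares were 24.5%, 64.6% and 30.7%. With 3 members no difference from either set can be claimed. The next regions beyond the limit were more widely called in part: RAP1A (median summit at nt 64) was in 5 lists and UBQLN4 (nt 65.5) in 6, including both KO lists, while F8A1 (nt 65) was in 3. F8A1 has near-identical copies, so its reads may be shared among them.

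The WT and KO lists also held fewer near-start peaks of any kind. Peaks on mRNAs with a summit at nt 60 or earlier numbered 3 and 2 in WT and 0 and 0 in KO, of 2024 to 3287 mRNA peaks a list. They numbered 44 and 45 in UT, 39 and 24 in H2O2, and 48 and 30 in Starve, of 3628 to 10533. The lowest summit was at nt 73 and 65 in the KO lists, at nt 53 and 32 in WT, and at nt 16 to 41 in the UT, H2O2 and Starve lists, so WT replicate 2 lay within the range of the last. Peak length moved with this split. The shortest peak was 100 nt in each of the 10 lists, and 50.7% to 57.5% of mRNA peaks had that length in UT, H2O2 and Starve, against 10.4% to 27.3% in WT and KO. The part of peak length, depth or list in the near-start counts was not tested.

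Most regions with a median summit near the start were called in a single list. Near-start peaks that merged with later summits can lie in regions beyond the limit, which are not counted here. Over all lists 118 mRNA regions of 95 genes had a median summit at nt 60 or earlier, and 109 of them were in 1 list (92.4%, against 73.2% of all 35402 mRNA regions). Another 6 were in 2 or 3 lists of different conditions. They lay on PACSIN3 (1 UT, 1 H2O2 and 1 Starve list, median summit at nt 58) and, in 1 UT and 1 Starve list each, on KIF18B (2 transcripts), TMEM54 (nt 35), SLC35A4 (nt 53.5) and SLC67A2 (nt 54.5). These genes were named after their values were seen. The 3 members are what remained after asking for both replicates.

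By summit position, reproduced regions became frequent only further into the transcript. Their number was 0 up to nt 40, 3 from nt 41 to 60, 35 from nt 61 to 80, 287 from nt 81 to 100 and 1403 from nt 101 to 150. The 3 members were 0.0643% of the reproduced mRNA regions, and the regions from nt 101 to 150 were 30.0%. Regions are counted per transcript throughout, so isoforms that share sequence can repeat the same reads in these counts and shares. The 1403 regions from nt 101 to 150 lay on 947 genes, and all 4669 reproduced regions on 2684. The name cap-adjacent thus applies to the tail of a distribution of summits whose bulk lay farther downstream. It does not rank regions by where they begin. The regions of SMARCC2, BSN and CLUH began at nt 5, 4 and 11. Those of RAP1A, F8A1 and UBQLN4, just beyond the limit, began at nt 1, 2 and 2. The shortest peak in every list was 100 nt, and the part of peak length in these position counts was not tested.

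**Figure D2:**
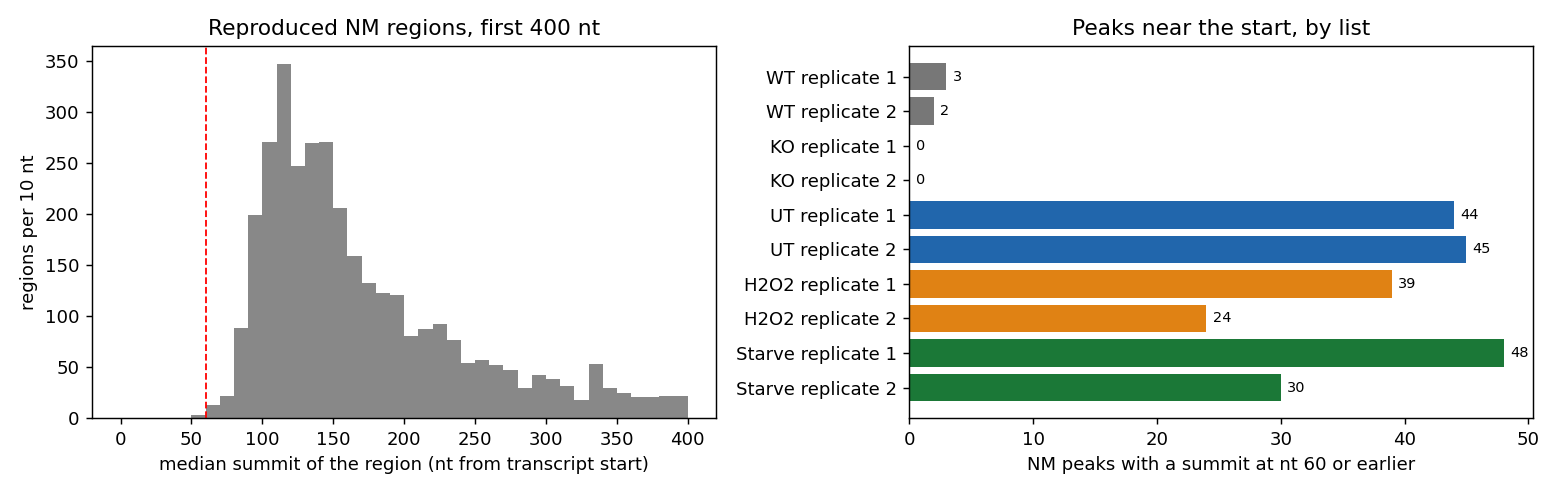
Left, reproduced mRNA regions per 10 nt of median summit position in nt from the transcript start, with the limit of 60 nt as a dashed line. Right, number of mRNA peaks with a summit at nt 60 or earlier in each of the 10 lists (1 bar a list), from 0 in both KO lists to 48 in Starve replicate 1.

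In 7 of the 8 member peaks the fold was fixed by the pileup and a value common to the list. In each list, the pileup plus 1 divided by the fold had a most frequent value, which was 9.90 and 9.96 in Starve, 11.0 and 8.40 in UT and 10.9 in H2O2 replicate 1. Of the 8 member peaks, 7 had that value within 0.1%, and the CLUH peak of UT replicate 1 had 11.3 against 11.0. As background, MACS2 compares each pileup with the larger of a local and a list-wide background. SMARCC2 and BSN, each with a pileup of 51 in Starve replicate 1, had the same fold of 5.25. Such peaks were common: 60.7% and 44.1% of mRNA peaks in the Starve lists, 60.6% and 63.3% in UT and 53.1% in H2O2 replicate 1 had the value of their list.

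Set against their lists, the members were of low to middling height. Of the 8 peaks, 1 had a pileup above the median of the mRNA peaks in its list, the SMARCC2 peak of H2O2 replicate 1 (216 against a median of 76). In fold, 3 of the 8 were above the list's median: that peak and the peaks of SMARCC2 and BSN in Starve replicate 1 (5.25 against 4.04). In Starve replicate 2 the same genes had folds of 6.43 and 3.92 against a median of 6.67. CLUH had folds of 2.22 and 3.81 in UT against medians of 3.90 and 4.16. Of the 8 peaks, 4 had the shortest length of 100 nt: all 3 of CLUH and that of BSN in Starve replicate 2.

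**Figure D3:**
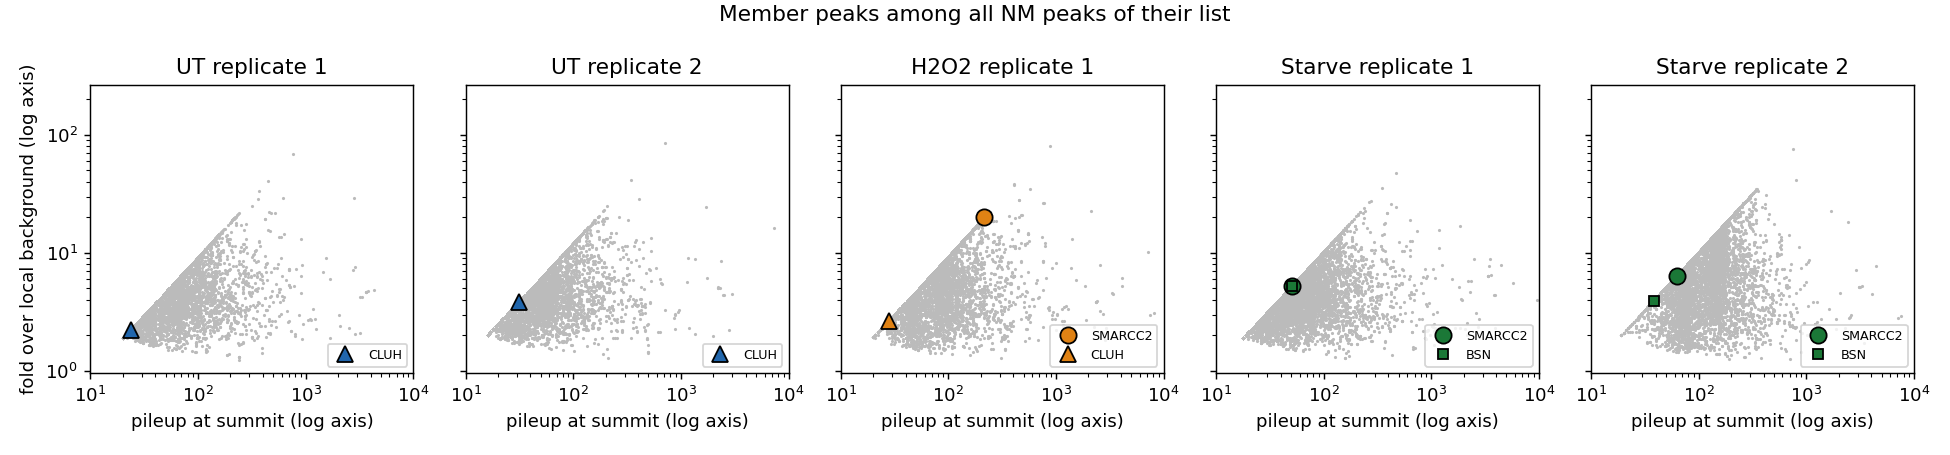
Each panel is 1 list with member peaks, with pileup at the summit against fold over background (labelled local), both on log axes. Grey points are all mRNA peaks of the list up to a pileup of 10000, and symbols are SMARCC2 (circle), BSN (square) and CLUH (triangle). The members lie on or beside the upper edge of each cloud, where fold is set by pileup, and SMARCC2 and BSN coincide in Starve replicate 1.

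The demethylase data could not be read for the members. The window files, which give coverage of pulldown and demethylase-treated RNA in windows of 10 nt for WT and KO, listed 0 windows on SMARCC2, BSN or CLUH. They did reach the first nucleotides of other mRNAs, with 516 and 537 NM_ transcripts in WT and 1129 and 1114 in KO that had a window starting at nt 60 or earlier. Windows began by nt 10 on 318 and 350 NM_ transcripts in WT and 545 and 540 in KO. For each of these, the scaled pulldown coverage was summed over its listed windows, which need not cover the whole transcript. A median of 9.65% and 8.18% of that sum in WT and 7.13% and 6.45% in KO lay in windows ending by nt 60. In the demethylase-treated libraries the medians were 8.88% and 6.60% in WT and 6.07% and 5.79% in KO. The transcripts listed differed in number between WT and KO, so WT and KO are not compared. These values describe other genes and bear on no member. The member peaks thus rest on the pulldown alone, and whether the antibody bound m1A there was not tested.

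No gene of the 17 gene lists had a reproduced near-start region. Among genes with a reproduced region the count at nt 60 or earlier was 0 of 20 cytosolic ribosomal proteins, whose closest region was on RPL28 (nt 89), and 0 of 30 translation factors, with EIF2S3 (nt 81). It was 0 of 5 m1A, m6A and cap methylation genes, with TRMT10C, a mitochondrial tRNA methyltransferase (nt 119), and 0 of 5 cap-binding and cap-removal genes, with NCBP3 (nt 116). It was 0 of 18 for mitochondrial ribosomal proteins, 0 of 31 for oxidative phosphorylation, 0 of 29 for splicing factors and hnRNP, 0 of 18 for the proteasome, 0 of 17 for chaperones and 0 of 11 for RNA helicases. The remaining lists gave 0 of 27 zinc finger genes (ZNF583 closest, nt 74), 0 of 37 solute carriers, 0 of 17 RAB GTPases, 0 of 28 ubiquitin enzymes, 0 of 8 stress response genes and 0 of 6 serum response genes. Of all 2684 genes with a reproduced region, 3 had a member (0.112%), so counts of 0 in lists of this size are near the background and are no result about the lists. Counting every region called in 1 or more peak lists, 10 genes of 6 gene lists had a median summit at nt 60 or earlier: the solute carriers SLC22A17, SLC35A4, SLC35F2 and SLC67A2, the ubiquitin enzymes UBA3 and UBE2E3, and EEF1E1, ATP5PB, DNAJC1 and RAB39A. These 10 genes are named after their values were seen. The closest gene of each list was named after its values were seen. Of the markers of other cell types 1 gene, COL1A1, had a reproduced region, far from the start (nt 2570). ALKBH3 itself had 0 peaks in the 10 lists, so these lists check neither the knockout nor the identity of the cells.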

How the data were processed

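Pulldown peak lists (2 each for WT, KO, UT, H2O2 and Starve) were read as deposited. Tools named in the submitters' processing notes are Trim Galore, HISAT and MACS2, with build hg19. No version, order or choice of control input is given in the sources used. Per the file headers, each list gives for a peak the pileup (a coverage signal, with no visible normalization), a fold over background and −log10 q-values, all made by the authors' peak caller. Positions are on RefSeq transcripts. The authors' window files hold scaled coverage signal and a score, treated minus pulldown, per the file headers. The score was not used.

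Here, peaks were merged and regions selected as described in the report (Python 3.11.15, pandas 2.3.3), after a check on simulated peak lists. Symbols came from a RefSeq table (GRCh38.p14), which matched 15607 of the NM_ transcripts with a peak (99.1%). Percentiles are within a list and over its mRNA peaks. The region members and the gene lists were chosen with earlier results of these data known. The naming rule took all members, then the 3 regions just beyond 60 nt. Genes named otherwise are marked in the text. The limma fits planned for window coverage were not run, because no window lies on a member. Library depth is not given in the lists, so no interval from depth can be given.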

Additional observations from a re-analysis of the deposited data

How the results depend on the processing

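The number of near-start regions, 3, was 1 with a fold of 4 or more (SMARCC2), 0 with a summit limit of 40 nt and 325 with one of 100 nt. It was 2 where the −log10 q-value had to reach 5 (BSN and SMARCC2), and 2 when every list was limited to its 2175 highest folds, where both regions were on SETD5 and 0 of the 3 members were kept. It stayed at 3, with the same members, when overlap had to reach 0.5 of the shorter peak and with 1 transcript per gene. Leaving out a list, so that the other list of its condition sufficed, gave 3 to 33.

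The count of Starve-only members against UT, 2 (SMARCC2 and BSN), became 1 with a fold of 4 or more, 0 with lists of 2175 peaks, 0 at 40 nt and 24 at 100 nt, and 2 to 22 when a list was left out. Without Starve replicate 1 SMARCC2 was lost, and without Starve replicate 2 both were, so the higher counts there hold other genes. The count of UT-only members against Starve, 1 (CLUH), became 0 with a fold of 4 or more, with a −log10 q-value of at least 5, with lists of 2175 peaks and at 40 nt, and 33 at 100 nt, and 1 to 27 when a list was left out, where CLUH was lost without either UT list. The counts of 0 became, at 100 nt, 9 for H2O2 only against UT, 44 for UT only against H2O2, 49 for KO only and 45 for WT only. With lists of 2175 peaks WT only was 2. Leaving out a list gave 0 to 24 for H2O2 only, 0 to 31 for UT only against H2O2 and 0 to 1 for WT only.

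Chosen after the data were seen, asking for a summit at nt 60 or earlier in both replicates of a condition gave 3 regions (SMARCC2, CLUH and PTPRS, without BSN), and taking the median over conditions called in both replicates gave 4 (with F8A1). With 2 lists of a condition still required, leaving out either Starve list left 1 member (CLUH), either UT list 2 members, and H2O2 replicate 1 4 regions. No paired analysis was possible because the members have no value in the lists where they were not called and no window in the window files. The alternatives planned for window coverage were not run for the same reason. Low pileups (24 to 63 in 7 of 8 peaks) limit what the lists can show.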
